A study of Mus musculus with 6 samples.

Results

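This account covers the immunoglobulin light chain probes of an Agilent one-colour array, measured in sorted medullary thymic epithelial cells (mTECs) of mice without and with the methyl-CpG binding protein Mbd1. The members were the probes whose description names immunoglobulin kappa or lambda, together with probes placed by the array design in the kappa span of chromosome 6 that had an immunoglobulin description or none. That rule took 83 of the 41174 probes of the deposited matrix, 72 in a kappa class and 11 in a lambda class. The set was proposed with the KO and WT values known, so those values are given here as a description. Counts of limma calls among them come from a fit over the whole array and are no independent evidence, since the same values chose the members.

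The series compared MBD1 KO mice with MBD1 WT mice at 30 days of age. mTECs were sorted from the thymus as living cells positive for EPCAM and MHC class II and negative for CD45, CD11c and Ly51, so both genotypes passed the same gate. RNA was amplified as whole transcriptome, labelled with Cy3 and hybridised, with 3 arrays per genotype left of 4 replicates each after quality control. The labels do not give the strain, the sex, the kind of Mbd1 allele, or whether a replicate was 1 mouse or a pool. The spread between replicates is therefore that between these samples, and their number limits the precision of every value.

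Antibodies are built from heavy chains and light chains, and each light chain is of the kappa or the lambda type. A light chain gene is assembled in developing B cells: recombination joins 1 variable (V) segment to 1 joining (J) segment, and splicing then links the joined segment to a constant (C) segment. In the mouse the kappa locus holds many V segments and a single C segment, whereas the lambda locus is small, and kappa chains predominate in mouse antibodies. Each B cell clone carries its own V to J junction, and plasma cells, the secreting end stage, hold very large amounts of light chain transcript. mTECs show T cells a broad range of tissue-restricted genes, and B cells and plasma cells also live in the thymic medulla.

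The 83 members fall into several kinds. The kappa class held 51 probes described as kappa segments, 1 probe of the kappa constant segment, 15 probes in the span with no description, and 3 probes in the span described as heavy chain. It also held Rbpj and its relative Rbpjl, DNA-binding proteins on chromosomes 5 and 2 whose full names mention the kappa J signal and which are not light chain genes. The lambda class held 8 probes named Iglv1, 1 probe of a lambda constant segment, and 2 probes of Igll1, which encodes part of the surrogate light chain of early B cells. The matrix tied 48 members to a single light chain segment through its Ensembl columns and 5 to more than 1 segment, 2 to a heavy chain segment, and 28 to none. Light chain V segments resemble each other, so transcripts of 1 segment can bind the probe of another, and the value of a single segment is uncertain for that reason. Of the 83 members, 70 passed the detection filter (at least 3 of 6 arrays with a signal the scanner software called well above background) and are called kept, 59 of them kappa class and 11 lambda class. The background level of a column is taken here as the 95th percentile of the 5295 probes detected on no array, and it lay between 5.50 and 5.67 on the log2 scale in the 6 columns. The other 13 members were all kappa class, and 11 of these were at background in every WT column.

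The genotype labels need care before any value. The matrix has 3 columns named KO and 3 named WT, and Mbd1 itself was at or near the array's background in the KO columns, with log2 values of 5.64, 5.61 and 5.60, against 8.83, 8.60 and 9.00 in the WT columns (probe A_51_P143224). In rank over all probes, 5 of the 6 columns were identical to 1 scanner array each. None of the 5 matched the array with its own title, and 4 matched an array titled with the other genotype. Columns are used below as named, where Mbd1 goes with the name, and the arrays by title are given apart.

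Light chain probes were higher in the KO columns. Over all 83 members the median KO minus WT difference was 1.35 on the log2 scale, against −0.01 over all probes, and 76 differences were positive, against 48.7% of all probes. Every KO column lay above every WT column for 49 members (59.0%), against a background of 4.02% of all probes, and no member showed the reverse. A difference of at least 1 log2 unit was seen in 48 members, against 0.503% of all probes. Among the kept members limma called 8 higher at an adjusted p threshold of 0.05, against 0.164% of the kept probes. The rule used this contrast, so nothing is read from these shares. The 8 called probes became 1 for WT_2, 4 for WT_3, 12 for KO_1 and 15 for KO_3 when that column was left out. With slide in the limma fit, which drops KO_1 (slide unknown) and sets KO_2 and KO_3 against WT_1 alone, it was 0. In that fit 42 members were higher and 1 lower at an unadjusted p under 0.05, against 3.29% of kept probes higher.

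The gap was present in each column and differed in size between columns. The median log2 value of the 59 kept kappa probes was 7.71, 9.11 and 7.71 in KO_1, KO_2 and KO_3, against 6.35, 6.22 and 6.55 in WT_1, WT_2 and WT_3. The 11 lambda probes had medians of 8.81, 10.4 and 9.69 in the KO columns, against 7.99, 6.66 and 6.28 in the WT columns. KO_2 stood highest in both classes, and WT_1 was close to KO_1 for lambda but not for kappa. Without KO_2 the median kappa difference was 0.90 in place of 1.42.

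Light chain signal was not absent from the WT columns. Of the 52 probes described as kappa segments, constant segment included, 47, 50 and 47 exceeded the background level in the KO columns, against 32, 41 and 41 in the WT columns. For 14 members all WT columns were at background, and for 4 of them so were all KO columns. These are bulk samples, so fewer cells carrying light chain transcripts and less transcript per cell cannot be told apart.

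The kappa constant segment, which is shared by every kappa chain whatever its V segment, was read by probe A_52_P238230 (chromosome 6). Its log2 values were 13.57, 14.71 and 13.61 in the KO columns, against 11.73, 11.60 and 12.26 in the WT columns. The groups did not overlap, and all 6 columns were far above background. Its spot was marked as an outlier on the array that matches KO_3, and on the array titled KO 2, which matches no column. The mean was 13.97 ± 0.64 in KO and 11.86 ± 0.35 in WT (SD, n = 3 each), a difference of 2.10 (SE 0.31) or 4.30-fold.

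The V segments followed with a wide range. All 44 kept probes described as kappa segments, constant segment included, had a positive difference, between 0.11 and 3.79 with a median of 1.46. Of them 31 had every KO column above every WT column, against 4.07% of the kept probes. Some, such as A_52_P538080 and A_52_P84800, passed the filter only on the arrays that match KO_2 and KO_3 and on the array titled KO 2. The filter thus shaped this count. Over all 52 such probes, kept or not, 51 differences were positive and 1 was negative, at −0.01. Probe A_52_P957659, named Igk-V1, had the largest difference of the kept kappa probes, with log2 values of 9.68, 13.05 and 9.74 in KO and 6.88, 5.75 and 8.47 in WT. Its difference of 3.79 (SE 0.84) rested on KO columns that spread over more than 3 log2 units. A second probe of that name, assigned to segment IGKV1-117, had 9.46, 12.64 and 9.54 in KO and 7.81, 7.07 and 8.42 in WT. On the array that matches KO_2, the spot of this second probe was marked as an outlier. Both Igk-V1 probes showed KO_2 far above the other KO columns.

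Segment IGKV12-41 was measured by a pair of probes that gave similar pictures. The first had 9.18, 10.48 and 7.96 in KO, against 5.79, 5.74 and 5.54 in WT, a difference of 3.51 (SE 0.47, A_51_P343336). The second had 8.05, 9.29 and 8.54 in KO, against 5.57, 5.77 and 5.96 in WT, a difference of 2.86 (SE 0.29, A_51_P444502). In WT the segment was close to background in each column, whereas in KO all columns were well above it. Another segment of the same V family, IGKV12-46, had 9.39, 9.94 and 8.61 in KO and 5.91, 6.11 and 7.33 in WT.

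The remaining kappa probes of largest difference included other V families. IGKV5-43 had 9.40, 9.46 and 7.23 in KO and 5.55, 5.94 and 6.10 in WT, with KO_3 lowest of the KO columns. The 2 probes of IGKV1-133 differed by 2.71 and 2.62, and both had KO_2 more than 2 log2 units above KO_1 and KO_3. IGKV10-96 differed by 2.57, and IGKV10-94 of the same family by 2.38. In IGKV10-94 the groups overlapped, since WT_1 at 8.85 exceeded KO_1 at 8.57, while WT_2 and WT_3 stood at 6.85 and 5.46. An undescribed probe of the span, NAP095777-001, had 9.83, 10.96 and 9.63 in KO and 6.40, 6.89 and 9.23 in WT.

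By V family, named after sequence likeness, differences were positive in nearly all members. The 5 probes of family 12 had a median difference of 2.86 (0.28 to 3.51), and the 6 of family 1 a median of 2.21 (−0.01 to 2.78). The 6 probes of family 4 had a median of 1.47 (0.35 to 2.37), and the 5 of family 3 a median of 1.18 (0.83 to 2.20). The 4 probes of family 8 lay lower, with a median of 0.64 (0.54 to 0.74). Families with fewer probes ranged from 0.11 for the single probe of family 13 to 2.48 for the median of the 2 probes of family 10. Probes of a family share sequence and are not independent of each other, and no difference between families was tested.

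Besides the constant segment, 4 kappa class probes were named for their high mean values. NAP029125-1 had 12.57, 13.12 and 12.35 in KO and 12.61, 12.68 and 12.78 in WT, and NAP061492-1 had 11.12, 10.98 and 10.62 in KO and 10.94, 10.77 and 11.18 in WT. The groups overlapped in both of these undescribed probes, and their differences were −0.01 (SE 0.23) and −0.06 (SE 0.21). U26471, a kappa segment probe that matches IGKV1-110 and IGKV1-117, had 10.71, 14.03 and 10.57 in KO and 9.51, 8.48 and 9.49 in WT. The IGKV14-111 probe of chromosome 6 had 10.19, 11.70 and 10.58 in KO and 8.98, 7.79 and 10.25 in WT, where WT_3 just exceeded KO_1.

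The 15 undescribed probes of the span split in size. In 6 the difference was at least 1, with a median of 2.17 (2.05 to 4.50), and in the other 9 the median was 0.02 (−0.38 to 0.78). BC002112 had the largest difference of all members, with 10.34, 10.39 and 8.28 in KO and 5.03, 5.12 and 5.37 in WT. All WT columns were at background, so KO was at least 17.0-fold higher than the background level. The probe was not kept because it was well above background on only 2 arrays, those that match KO_2 and KO_3. KO_1 matches no array, so the filter could not count it. NAP017905-001 was the most negative kappa class probe at −0.38 (SE 0.75), with 5.79, 6.04 and 6.47 in KO and 4.93, 5.67 and 8.85 in WT. That negative value came from WT_3 alone.

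Several members are no kappa segment by name or by placement. Rbpj had a difference of −0.16 (SE 0.25) and Rbpjl one of 0.09 (SE 0.25), with overlapping groups for each. The 3 probes described as heavy chain but placed in the kappa span differed by 2.01, 1.20 and 0.74. The Ensembl columns tied the first 2, both named Igh-VX24, to a heavy chain V segment on chromosome 12, and the third, described as Ighm, to the kappa segment IGKV8-19. A pair of further IGKV14-111 probes was placed on chromosome 12 by the array design and differed by 0.75 and 0.23. A probe of IGKV14-100 was placed on chromosome 16 by the design and on chromosome 6 by Ensembl, and differed by 0.84 with overlapping groups.

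Lambda differences were larger on V segment probes than at the constant end of the locus, and the cause was not tested. The 8 probes carry a single name, Iglv1, but by the matrix's Ensembl columns and their placement 4 lie on V segments, 2 have their ends in separate parts of the locus, and 2 lie at the constant end. The 4 V segment probes and the 2 split probes had differences of 1.81 to 3.90 with a median of 2.71. The 2 at the constant end, of which 1 is assigned to the constant segment IGLC1 and the other lies 232 bases from it, differed by 0.93 and 0.96. The probe of a further constant segment, IGLC3, was the single lambda probe with a negative difference.

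The split probes span separate parts of the lambda locus. The array design placed the ends of A_51_P503757 21818 bases apart and those of A_52_P383114 21815 bases apart, against a usual 60 bases for a member. A_51_P503757 had log2 values of 9.60, 11.64 and 11.80 in KO and 8.99, 6.07 and 6.28 in WT, a difference of 3.90 (SE 0.73). Its spot was marked as an outlier on the array that matches KO_2. A_52_P383114 had 7.96, 10.40 and 9.92 in KO and 7.99, 6.20 and 6.06 in WT, a difference of 2.68 (SE 0.61). In both, WT_1 was more than 1.5 log2 units above the other WT columns and near KO_1. In the second probe WT_1 slightly exceeded KO_1, so its groups overlapped.

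The V segment probes of lambda separated the genotypes. Probe A_52_P829408, assigned to IGLV1, had 8.81, 10.48 and 9.69 in KO and 7.64, 6.08 and 6.14 in WT, a difference of 3.04 (SE 0.46). Probes A_52_P672903 and A_52_P450276 match IGLV1 and IGLV2 alike and differed by 2.74 and 2.46. Probe A_52_P622355, assigned to IGLV2 alone, differed by 1.81 (SE 0.26), the smallest of the V segment and split probes. For these 4 probes every KO column lay above every WT column, against 4.07% of kept probes. They overlap in the segments they match, so they are not independent of each other. In each, KO_1 was the lowest KO column and WT_1 the highest WT column.

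At the constant end the groups overlapped. A_51_P503756 had 11.25, 13.44 and 12.62 in KO and 11.29, 11.87 and 11.27 in WT, and A_52_P450277 had 9.71, 11.48 and 11.10 in KO and 9.64, 10.25 and 9.61 in WT. In both, KO_2 and KO_3 exceeded every WT column and KO_1 did not. A_51_P503756 and the split probe A_51_P503757 come from the same cDNA entry yet differed by 0.96 and 3.90. The IGLC3 probe (A_51_P483576) had 10.54, 11.18 and 10.87 in KO, against 10.99, 11.59 and 11.19 in WT, a difference of −0.39 (SE 0.23). All 3 of these probes were far above background in every WT column, while 5 of the 6 V segment and split probes were within 1 log2 unit of it in WT_2 and WT_3, at 5.30 to 6.28.

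The surrogate light chain gave values near 0. The 2 probes of Igll1, which pairs with the heavy chain in early B cells before a light chain is made, differed by 0.10 (SE 0.25) and 0.04 (SE 0.20). Its brighter probe had 8.58, 8.41 and 8.30 in KO and 7.80, 8.75 and 8.44 in WT. The partner genes Vpreb1 and Vpreb2 differed by 0.12 and −0.25, with overlapping groups.

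The order of kappa and lambda differences depended on the setting. The median difference was 1.42 for kept kappa probes and 1.81 for lambda probes, a gap of −0.39 between kappa and lambda. On the single slide that holds both groups, where WT is column WT_1 alone, the gap was −0.05. Without WT_3 it was −0.04, and over probes well above background on all 6 arrays it was 0.01. Taking the brightest probe per gene name turned it to 1.32. The 8 Iglv1 probes then gave a single value, beside those of Igll1 and IGLC3. The lambda median was then the Igll1 value, 0.10. Every KO column lay above every WT column for 38 of 59 kept kappa probes (64.4%) and for 5 of 11 lambda probes (45.5%), against 4.07% of kept probes. The lambda count was 8 without KO_1, the column in which 9 of the 11 lambda probes had their lowest KO value. Such a count cannot fall when a column is left out, and the share of 4.07% is for all 6 columns.

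Replicates differed more for light chain probes than for the array as a whole. The median within-group SD over the kept members was 0.71 log2 units, against 0.26 over all kept probes. The spread was wider in KO, with a median SD of 0.80 in the KO columns and 0.34 in the WT columns for kept members, against 0.25 and 0.22 over all kept probes. Counting probes whose highest column exceeded the next by at least 2 log2 units, a limit chosen after the values were seen, gave 12 of the 83 members (14.5%), against 36 of all 41174 probes (0.0874%). The members were chosen on values of these same columns, so this is a description.

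Those 12 probes show which segments stood out in which sample. KO_2 was the high column for 10, among them Igkv1-135, the Igk-V1 pair, the IGKV1-133 pair, U26471, IGKV12-44 and IGKV4-63. Over all probes, these members included, KO_2 was that column for 17 of 36, the most of any column. Igkv1-135 had 9.03 in KO_2 alone and 5.43 and 5.06 in KO_1 and KO_3, where it was at background, as it was in WT. IGKV5-48 was high in KO_1 alone, at 7.91, with 5.14 and 5.57 in KO_2 and KO_3. NAP017905-001 was high in WT_3 alone. NAP012952-001, an undescribed probe whose ends the design placed 11602 bases apart, had 4.97 in KO_1 and 8.63 and 8.61 in KO_2 and KO_3, with all WT columns at background.

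Other segments were shared unevenly across genotypes. Igkv6-14 had 6.22, 8.86 and 10.16 in KO and 5.91, 5.82 and 9.01 in WT, so that a WT column exceeded 2 KO columns. Igk-V38 (IGKV19-93) had 7.43, 10.36 and 8.75 in KO and 8.88, 7.41 and 5.98 in WT, where WT_1 exceeded KO_1 and KO_3. The kappa constant probe, which is common to all kappa chains, had a KO SD of 0.64, while the kept kappa segment probes had a median KO SD of 0.85.

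Probes of the kappa span outside the rule resembled the members, while the median of the flanks was near that of all probes. Within the span by the array design's placement, 23 further probes did not meet the rule because their description names something else. Their median difference was 1.53, with every KO column above every WT column for 15, against 4.02% of all probes. Of the 23 differences 18 were positive and 5 negative. They include several updated to kappa segments by the gene table, such as Igkv9-120 with differences of 4.13 and 2.62. Probes with other gene names varied: Rpia, a metabolic gene inside the span, was at 0.00, while Asb2 (not kept) was at 2.89 and Cisd3 at 2.82. In the 2 Mb on either side, 106 probes had a median difference of −0.03. Every KO column was above every WT column for 5 and below for 6, each against 4.02% of all probes. Among the 5 were the T cell genes Cd8b1 at 0.97 and Cd8a at 1.12 and 0.38, on the upper side. Just inside the lower edge lay Igkv1-135 at 1.38, and just outside it 4930515G16Rik at −0.06. The member closest to the upper edge was BC002112 at 4.50, and just outside that edge lay a probe of Eif2ak3 at 0.10. A further probe near the lower edge on the outside, D6Ertd456e (Igk-V28), carries a kappa name and differed by 2.59.

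The median was positive along the whole span. Split by order, the 23 members at the lower end had a median difference of 1.82, the 22 in the middle 1.29, and the 22 at the upper end 1.19. Each of these groups held values near 0 and values above 3. The design and Ensembl placed the kappa constant probe at different points of the span, so the order is that of the array design. The build of either placement is not given in the sources used here, and only chromosomes are stated.

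Heavy chain probes were higher in the KO columns too. The 56 other probes described as heavy chain, none of them a member, had a median difference of 1.47, and every KO column was above every WT column for 36, against 4.02% of all probes. Jchain, which links secreted IgA and IgM, had 7.42, 9.60 and 7.99 in KO and 6.50, 6.29 and 6.99 in WT, a difference of 1.74, again with KO_2 highest. Its second probe differed by 1.65.

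The B cell marker list had a median near that of all probes. For B cells 10 of 18 measured genes were positive with a median difference of 0.06, and 2 had every KO column above every WT column, against 4.07% of kept probes. Limma called none, against 0.177% of kept probes in either direction. At an unadjusted p under 0.05 there was 1, against 3.96% of kept probes in either direction. Cd79a, a signalling chain of the B cell receptor, had 7.93, 8.40 and 7.88 in KO and 8.17, 8.12 and 8.25 in WT, and the groups also overlapped for Cd79b and Ms4a1. The 2 B cell genes that separated were Fcrla at 1.12 and Spib at 0.41. The mean log2 level of the list was 8.81 to 9.08 in KO and 8.66 to 8.90 in WT.

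The plasma cell list had the same median. Of 13 measured genes 8 were positive, with a median difference of 0.06, and 2 separated upward, Jchain and Mzb1 (0.56), a chaperone of antibody secretion, while Fkbp11 (−0.71), a prolyl isomerase of the secretory pathway, had every KO column below every WT column. Over all kept probes such a separation was seen in 4.07% upward and 4.07% downward. Sdc1, the plasma cell surface proteoglycan CD138, differed by −0.15, and the plasma cell regulators Xbp1, Prdm1 and Irf4 by −0.21, −0.12 and 0.06. Limma called none, with 3 at an unadjusted p under 0.05, against 3.96% of kept probes in either direction. The list's mean log2 level was 8.29 to 8.63 in KO and 8.08 to 8.40 in WT. Cd79a, Sdc1 and Xbp1 were above the background level in every column of both groups, whereas Prdm1 was at background in KO_3, at 5.47. The part of B cells or plasma cells in the light chain values was not tested.

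Thymocyte markers had mostly positive differences, none of them called. Of 11 measured T cell genes 10 were positive with a median of 0.47, and 6 had every KO column above every WT column, against 4.07% of kept probes. Among them were Cd3e at 0.84, Cd8b1 at 0.97 and the recombination enzyme genes Rag1 at 0.43 and Dntt at 0.91. A second kept probe of Rag1 differed by 0.12, with 2 WT columns at background. The list's mean level was 8.39 to 8.72 in KO and 7.81 to 8.15 in WT, and limma called none, with 5 at an unadjusted p under 0.05, against 3.96% of kept probes in either direction. The part of thymocytes in the light chain values was not tested. Markers of mTECs themselves had a median of −0.05 over 13 genes, with Epcam at 12.88 ± 0.10 in KO and 13.10 ± 0.16 in WT and Aire at 11.07 ± 0.50 in KO and 10.77 ± 0.22 in WT (SD, n = 3 each), so the labelled cell type was present in both. Of the genes for the proteins used for exclusion, Ptprc (CD45) differed by 0.04, 0.25 and 0.23 over its 3 kept probes and Enpep (Ly51) by 0.05, with overlapping groups. Itgax (CD11c) differed by 0.47 and had every KO column above every WT column on its kept probe. Their part in the light chain values was not tested.

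The genes that join and transcribe light chain genes had medians near that of all probes. Of 13 measured recombination genes 4 were positive with a median of −0.05, and the 3 that separated upward were Rag1, Dntt and the DNA-bending gene Hmgb2 (0.26), of which the first 2 are also on the T cell list. The end-joining genes lay between −0.33 for Lig4 and 0.04 for Xrcc6, with overlapping groups. Of 18 transcription factors that act on light chain genes, 14 were positive with a median of 0.08, and the single one that separated was Spib. Receptors and transport proteins of immunoglobulin had a median of −0.10 over 8 genes, with Fcgr2b, an inhibitory antibody receptor, separating at 1.37. Over all kept probes 4.07% separated upward. Limma called none of these genes, against 0.177% of kept probes in either direction. An unadjusted p under 0.05 was found for 2 recombination genes, no transcription factor and 1 receptor gene, against 3.96% of kept probes.

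The authors' deposited table listed few members. At an FDR under 0.05 the authors' deposited table held 3 members, all higher in KO, against 0.0559% of all probes in that direction. They were BC002112 with a log2 fold change of 4.50 and an FDR of 0.032, the IGKV12-41 probe A_51_P444502 with 2.86 and 0.019, and the IGKV9-129 probe ENSMUST00000103308 with 1.92 and 0.0081, all as listed in the authors' deposited table. BC002112 and ENSMUST00000103308 were at background in all WT columns and did not pass the detection filter used here. Both were well above background only on the arrays that match KO_2 and KO_3. The IGKV9-129 probe had 7.22, 7.35 and 6.89 in KO and 5.26, 5.21 and 5.25 in WT, with an SE of 0.16, the lowest of any member with a difference over 1.

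By scanner titles the direction was the reverse. The 57 of 59 kept kappa probes with no outlier spot on any array had median log2 intensities, relative to each array's 75th percentile, of −3.79, −1.59 and −2.85 on the arrays titled KO, against −0.25, −3.43 and −1.43 on those titled WT. The 9 of 11 lambda probes with no outlier spot had −3.05, −0.05 and −3.27 on the arrays titled KO, against 0.71, −1.42 and 0.34 on those titled WT. Over all 59 and 11 probes, leaving out only the outlier spots, the median titled KO minus titled WT difference was −0.64 for kappa and −1.33 for lambda, and the kappa value became 0.11 without the array titled WT 1. Of the kept members 1 had every array titled KO above every array titled WT (background 8.41%) and 5 the reverse (background 2.68%).

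The titled groups overlapped for light chains. The array titled KO 2, equal to no column, lay with the arrays that match KO_2 and KO_3 rather than with those that match WT columns. Mbd1 had processed intensities of 356, 17.2 and 682 on the arrays titled KO, against 20.9, 305 and 15.6 on those titled WT (A_51_P143224). The 3 arrays with intensities of 15.6 to 20.9 on this Mbd1 probe thus had the highest light chain medians, whatever their titles. The other kept Mbd1 probes differed on the array titled KO 2. A_52_P158923 had 233, 21.3 and 313 on the arrays titled KO, against 7.39, 190 and 9.1 on those titled WT. The same arrays were thus low on it. A_52_P131423 had 75.7, 93.3 and 91.5 on the arrays titled KO, against 26.0, 63.3 and 28.1 on those titled WT. On that probe the array titled KO 2 was the highest. The arrays titled KO lay on 1 slide and those titled WT on another, so slide and title cannot be told apart. By columns, KO_2, KO_3 and WT_1 shared 1 slide and WT_2 and WT_3 the other, and KO_1 had none known. Within the slide holding both groups, with WT_1 as its only WT column, the median difference was 1.68 for kappa and 1.74 for lambda.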

How the data were processed

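Per the file headers, the authors deposited 1 matrix of log2 values with 6 columns, beside their own log2 ratio (fold), p-value, FDR and B score per probe, and 6 scanner files with processed intensity. Per the submitters' processing notes the scanner software was Agilent Feature Extraction 10.6. How the log2 values were normalised is not given in the sources used here, and their columns share nearly the same median. The matrix columns were used as deposited. A probe was kept if well above background, on spots not marked as outliers, on at least 3 of 6 arrays (32246 of 41174). limma 3.58.1 in R 4.3.3 fitted KO against WT columns over all kept probes with Benjamini-Hochberg adjustment, after a test on simulated data. SE values are from that fit, and for probes not kept from the fit of all probes. Scanner intensity was floored at 1, logged and set relative to each array's 75th percentile. No spot was saturated.

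Members, lists and the naming rule were chosen with earlier results of these data known. The naming rule took Mbd1, all constant segment and lambda probes, the 12 kept kappa probes of largest difference, the 5 brightest, those with a negative difference, members off chromosomes 6 and 16, and up to 4 neighbours of the span; other probes were named after their values were seen. Gene names of 23 members were updated through Entrez IDs, and 60 keep the matrix's name. Fold bounds set the KO mean against the mean WT background level. Same-numbered columns deviated from their group means with correlations of −0.285, −0.185 and −0.33, so column numbers did not pair samples. Background intensity correction (normexp, offset 50) was tried on the median signal columns.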

Additional observations from a re-analysis of the deposited data

How the results depend on the processing

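Of 101 results under another setting, 84 kept their direction and their side of the threshold or moved little. Part of these were fixed in advance, so the tally does not measure stability. A replicate block by column number leaves mean differences unchanged, and the columns shared nearly the same median before they were centred. The 8 light chain probes called higher by limma became 16 with the column number as a replicate block (numbers that do not pair samples, and no column correlated best with its own number), 3 with no filter on dim probes, 3 over probes well above background on all 6 arrays, and 0 with slide as a block or within the slide that holds both groups. With slide as a block no probe of the array was called by limma, while 42 members were higher and 1 lower at an unadjusted p under 0.05, and within that slide 41 were higher (3.29% and 1.48% of kept probes higher). Both rest on KO_2 and KO_3 against WT_1 alone and give the same differences, so they are 1 setting for the medians. Leaving out 1 column gave 1 to 15 calls. The median kappa difference stayed between 0.90 and 1.62 and the lambda one between 1.62 and 2.06 when 1 column was left out, and the kappa minus lambda gap between −0.72 and −0.04. That gap was 0.01 on all 6 arrays and 1.32 with one probe per gene name, where the lambda median was 0.10. The count of probes with every KO column above every WT column cannot fall when 1 column is left out. Its range under that setting therefore shows no stability. Kappa probes with every KO column above every WT column numbered 38, 18 over probes detected on all 6 arrays, and 38 to 45 with 1 column left out. Lambda ones numbered 5, then 2 on all 6 arrays, 0 with one probe per gene name, 5 to 8 with 1 column left out, and 10 within the slide that holds both groups, where 1 WT column makes such a split common (30.0% of kept probes). By array titles the kappa difference was −1.55 to 0.11 and the lambda one −1.97 to −0.92 with 1 array left out, and 0.11 came without the array titled WT 1. Fewer probes on all 6 arrays follows from that filter. The lambda median with one probe per name follows from leaving a single Iglv1 probe beside Igll1 and IGLC3. For the other changes the cause was not tested. Segments restricted to described kappa probes or lambda without Igll1 were alternatives added after seeing the data. Depth is signal over background: 13 members were not kept, and 14 had only a bound in WT.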
